A study of Homo sapiens with 2 samples.

Results

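The genes described here are the enzyme families that detoxify drugs and reactive oxygen species, together with the NRF2 regulators that control many of them. They were chosen by name from the deposited table: glutathione transferases (GST and MGST), glutathione peroxidases, peroxiredoxins, thioredoxins, glutaredoxins, aldo-keto reductases, aldehyde dehydrogenases, carbonyl reductases, cytochromes P450, glucuronosyltransferases, sulfotransferases, epoxide hydrolases and superoxide dismutases, plus 11 single genes. GPX4, TXNRD1, ALDH18A1 and CYP51A1 were left out by the same rule. It found 104 loci under 85 of the 12494 gene names, and the locus with the highest mean level stood for a name. HMOX2, SRXN1 and ME1, also on the list of single genes, were not analysed here.

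The study sequenced polyadenylated RNA from 2 forms of SBC5, a human tumour line of small cell lung cancer. The cisplatin-resistant cells, labelled CPr, had been selected by stepwise exposure to 1, 2, 4 and 20 µg/ml of cisplatin, which forms platinum adducts on DNA. The parental cells are the line from which they were made, and both were grown with 10% fetal bovine serum. There was 1 library of each form, so no difference given here has a replicate check or a p-value, and each describes these 2 libraries. Whether the resistant line is 1 clone, and whether the drug was present at harvest, is not given in the labels. Values are FPKM, fragment numbers per unit of transcript length and of library size, and the number of fragments behind each is unknown. They summed to 1081047 over the resistant and 1019555 over the parental library. Of 10 markers of small cell lung cancer and neuroendocrine cells, 5 were measured, that is, listed under that name alone at 1 FPKM or more in a library. A marker not measured may lie below this level, share a joined locus or be unlisted. SOX2 had 197 FPKM in resistant and 214 FPKM in parental cells, whereas SCG2 had 20.1 FPKM in resistant and 109 FPKM in parental cells, a log2 ratio of resistant over parental FPKM + 1 of -2.38. The other 3, YAP1, SYP and NCAM1, had log2 ratios of 0.14, 0.01 and 0.53. Of 5 epithelial markers 2 were measured, CDH1 with 4.81 FPKM in resistant and 0.536 FPKM in parental cells (1.92) and KRT8 with 2.36 FPKM in resistant and 2.09 FPKM in parental cells. CDH1 reached 1 FPKM in resistant cells alone, and its log2 ratio was 0.82 with 5 FPKM added in place of 1. Of 5 fibroblast markers 1 was measured, COL1A1, with 3.85 FPKM in resistant and 2.34 FPKM in parental cells (0.54). No hepatocyte or endothelial marker was measured, and 1 of 5 haematopoietic markers was, HBB, with 0.472 FPKM in resistant and 2.69 FPKM in parental cells. HBB reached 1 FPKM in parental cells alone. In bulk RNA, fewer cells of a type and less RNA per cell cannot be told apart.

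Cells dispose of reactive chemicals in stages. Cytochromes P450, reductases, dehydrogenases and epoxide hydrolases first modify a molecule, then transferases attach glutathione, glucuronic acid or sulfate to it, and transporters export the product. Peroxiredoxins, glutathione peroxidases, catalase and superoxide dismutases remove peroxides and superoxide. Thioredoxin and glutathione are electron donors for the peroxiredoxins and glutathione peroxidases. The transcription factor NRF2, encoded by NFE2L2, is degraded through its adaptor KEAP1 under resting conditions and escapes when KEAP1 cysteines are modified. It then binds antioxidant response elements near many of these genes. Cisplatin reacts with sulfur groups, glutathione included, and glutathione conjugation is one of the routes by which cells are known to resist it.

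Because NRF2 binds a defined DNA element, promoters were searched for its core letters, TGACNNNGC, on both strands. RefSeq windows of 300 bases (GRCh38.p14), from 250 before to 50 after a gene start, matched 68 of the 85 genes by symbol. The core was found in 12 of these 68 genes (17.6%), and in 1794 of 9121 compared genes that had a window (19.7%). Below, 1 match in each of the 12 genes is shown with 10 bases on either side, on the strand where it reads TGAC first, and the capitals mark the core. AKR7A2 has 3 matches, and GSTO1 and KEAP1 have 2 each.
GSTP1: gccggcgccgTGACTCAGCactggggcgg
GSTM1: ctgggcgcccTGACTTCGCtcccggaacc
GSTO1: ggcggagggaTGACTGAGCatttataact
GSTA4: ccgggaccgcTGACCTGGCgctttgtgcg
TXNL1: ctccctggcgTGACTCGGCactgagagtc
AKR7A2: cgcggtcagcTGACCCGGCgggccttgac
CBR1: ccagctagccTGACTTTGCagaacccgca
CYP4V2: ccgacgccccTGACCCCGCatccggaggc
UGT1A6: aggtgaaagcTGACACGGCcatagttggt
EPHX1: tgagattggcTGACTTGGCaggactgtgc
KEAP1: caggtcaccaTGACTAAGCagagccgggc
PIR: agcctcaccgTGACTCAGCgcttcgcggc
The GSTP1 and PIR matches share the letters TGACTCAGC, which also contain TGACTCA, the binding site of AP-1 factors. Over all windows of these genes 19 matches were counted, with those of AKR7A2 counted again in a second, overlapping window. Of the 19, 1 overlaps a match of GCGTG, the core of the dioxin response element bound by the aryl hydrocarbon receptor AHR. GCGTG was found in 38 of the 68 genes (55.9%), against 59.2% of compared genes with a window. A match of letters is a description and not a site in use.

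Most of the enzymes had nearly the same level in both libraries. Calls were made by size alone, at a log2 ratio of resistant over parental FPKM + 1 of 1 or more, or of -1 or less. By this rule 3 of the 85 genes were at least 2-fold higher in resistant cells (3.53%) and 1 was at least 2-fold lower (1.18%). Over all 12405 compared genes, 3.28% were higher and 2.70% lower, so the counts lay near the background. The median log2 ratio was -0.01 over the 85 genes and -0.04 over all genes, and 39 of the 85 lay above 0. The first of these medians turned positive after division of the resistant library by the median ratio. All 85 reached the minimum of 1 FPKM in either library, and 78 reached it in both. Of the other 7, 5 reached it in resistant and 2 in parental cells alone, and so passed through the library in which they were higher. All 4 genes past the limit are among these 7.

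**Figure D1:**
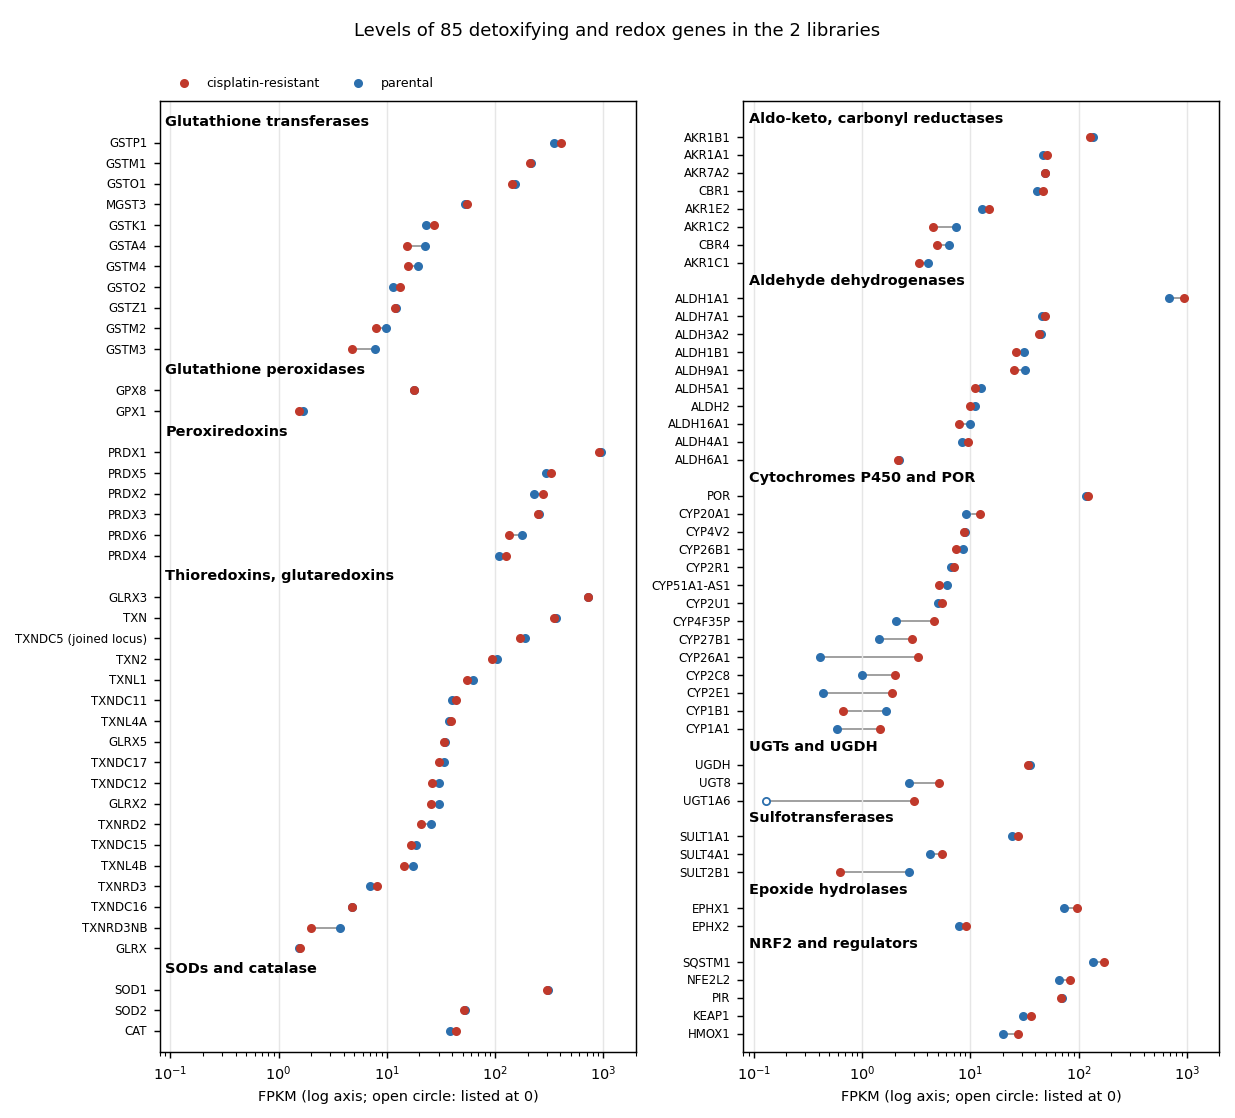
FPKM on a log axis for each of the 85 genes, grouped by family, with red points for the cisplatin-resistant and blue points for the parental library and a grey line joining them (n = 1 library each). The points nearly coincide for abundant genes, and the longest lines belong to genes under 5 FPKM, among them UGT1A6, listed at 0 in parental cells and drawn as an open circle at the edge.

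Within 0.5 of a log2 ratio of 0 lay 83.5% of the 85 genes and 82.7% of all genes. Among the 55 genes with a mean of at least 10 FPKM, 0 passed 2-fold, and 54 had a log2 ratio within 0.5 (98.2%). GSTA4 was the exception, at -0.53. Over all 7610 genes of that level, 1.63% were higher, 2.05% lower and 89.3% within 0.5. Each of the 24 members with a mean of at least 50 FPKM lay within 0.5, against 91.4% of all 2278 such genes. Among the 17 members with a mean under 5 FPKM, 35.3% lay within 0.5, against 66.8% of all 2642 such genes. These 17 include the 7 that reached 1 FPKM in 1 library alone, which the minimum lets in only where their libraries differ, so nothing is read from that share. These level bands were chosen with the values known.

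**Figure D2:**
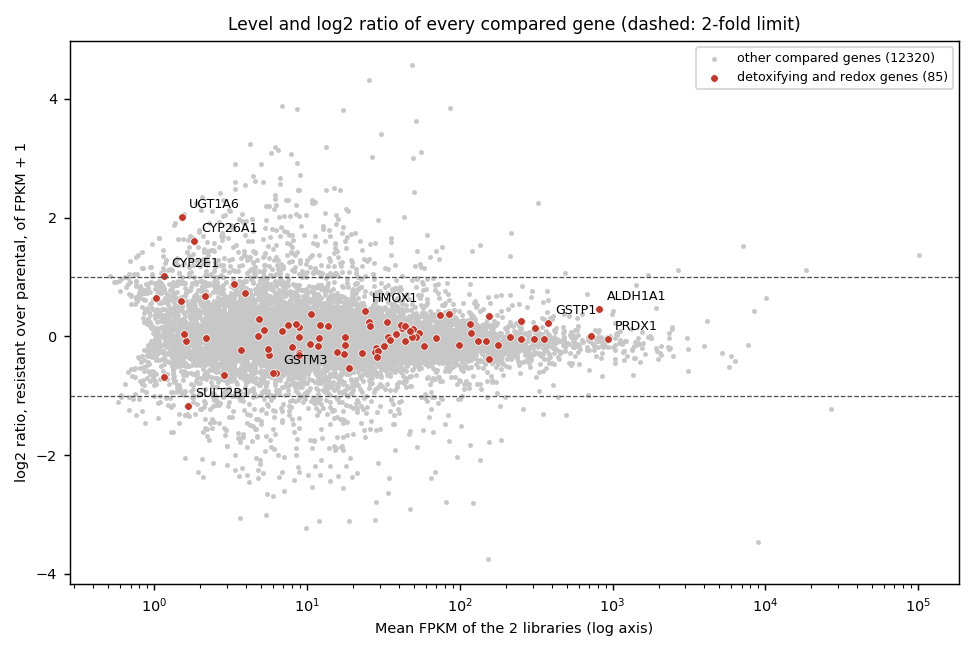
Mean FPKM of the 2 libraries on a log axis against the log2 ratio of resistant over parental FPKM + 1, in red for the 85 detoxifying and redox genes and in grey for the other compared genes, with dashed lines at the 2-fold limit. The 4 red points past the limit lie at the low end, whereas ALDH1A1, PRDX1 and GSTP1 lie between the lines at far higher levels.

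Glutathione transferases, which join glutathione to reactive compounds, were dominated by GSTP1, the pi-class enzyme long linked to platinum resistance. GSTP1 had 404 FPKM in resistant and 347 FPKM in parental cells (log2 ratio 0.22), and made up 44.3% of the summed level of the family in resistant and 39.8% in parental cells. Its gene lies on chromosome 11 from 67583595 to 67586656 on the plus strand (GENCODE 29, GRCh38), and its promoter window, chr11:67583562-67583861, is printed on that strand with the core in capitals.
GSTP1 promoter: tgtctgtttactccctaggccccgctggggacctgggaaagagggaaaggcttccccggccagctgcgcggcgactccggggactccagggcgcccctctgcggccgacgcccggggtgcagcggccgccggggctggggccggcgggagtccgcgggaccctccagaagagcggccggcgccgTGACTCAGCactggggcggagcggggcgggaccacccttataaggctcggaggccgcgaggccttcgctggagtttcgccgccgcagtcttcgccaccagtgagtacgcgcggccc
GSTM1, a mu-class enzyme whose gene is often deleted in people, was present in this line at 212 FPKM in resistant and 213 FPKM in parental cells. The omega-class GSTO1 had 144 FPKM in resistant and 152 FPKM in parental cells (-0.08). GSTM1 and GSTO1 were thus close to level between the libraries, and GSTP1 had the second-highest ratio of the family.

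The lowest ratios of the family belonged to scarcer genes. GSTM3 had 4.75 FPKM in resistant and 7.81 FPKM in parental cells (-0.61), and GSTA4, which conjugates the lipid peroxidation product 4-hydroxynonenal, had 15.3 FPKM in resistant and 22.6 FPKM in parental cells. At the other end GSTK1, the mitochondrial and peroxisomal kappa-class enzyme, had 27.5 FPKM in resistant and 23.1 FPKM in parental cells (0.24). The 6 transferases that the naming rule leaves out, GSTA4 and the membrane-bound MGST3 among them, had log2 ratios from -0.53 to 0.19. Of 11 transferases, 4 lay above 0 and 7 below, with a median of -0.03. That median was 0.01 after division by the median ratio. The summed level was 911 FPKM in resistant and 872 FPKM in parental cells, a log2 ratio of 0.06, and of -0.02 once the library sums were made equal. GSTM4, GSTM2, GSTM1 and GSTM3 lie close together on chromosome 1 between 109656081 and 109741038 and are closely related in sequence. So are AKR1C1 and AKR1C2 on chromosome 10 between 4963253 and 5018031. Reads may have been split between such copies, so their single values are uncertain.

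**Figure D3:**
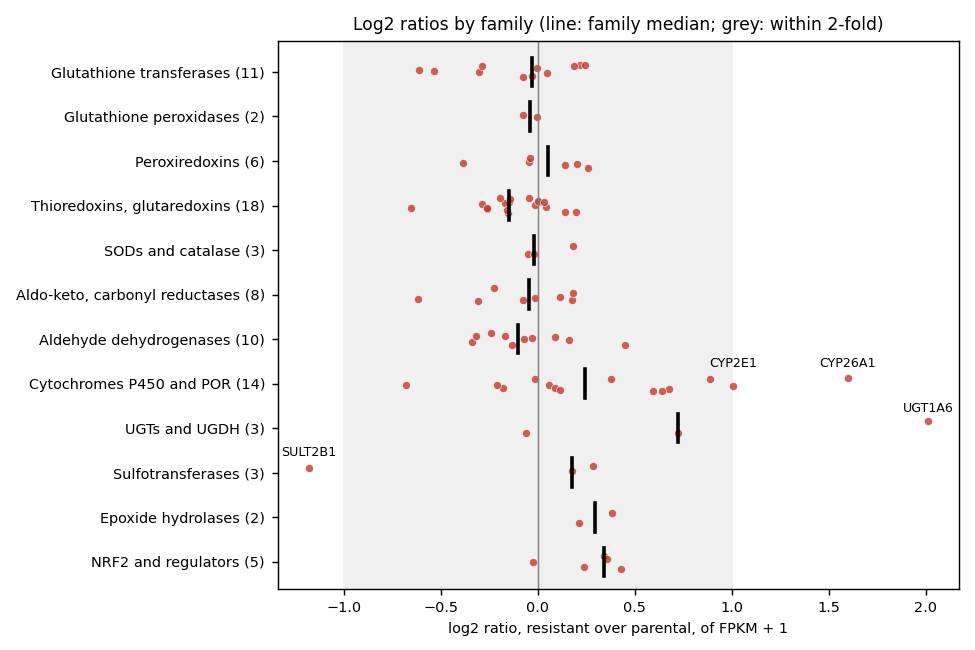
Log2 ratio of resistant over parental FPKM + 1 for each gene (red points), by family, with the number of genes in brackets, a black line at the family median and the range within 2-fold in grey. In 9 of the 12 families no gene leaves the grey range, and the 4 genes outside it, named beside their points, belong to the cytochromes P450, the UGT family and the sulfotransferases.

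Peroxiredoxins, thiol peroxidases that reduce hydrogen peroxide, were the most abundant family in sum, with 2025 FPKM in resistant and 2009 FPKM in parental cells. The log2 ratio of these sums was 0.01, and -0.07 with equal sums. PRDX1, a cytosolic form, had 914 FPKM in resistant and 942 FPKM in parental cells. PRDX5, found in mitochondria and peroxisomes, had 328 FPKM in resistant and 298 FPKM in parental cells, a log2 ratio of 0.14. PRDX2, also cytosolic, had the highest ratio of the family, with 274 FPKM in resistant and 229 FPKM in parental cells (0.26). PRDX6, which uses glutathione and reduces phospholipid peroxides, had the lowest, with 136 FPKM in resistant and 177 FPKM in parental cells (-0.38). No peroxiredoxin approached the 2-fold limit, the 2 others included. PRDX3, the mitochondrial form that takes electrons from TXN2, had 248 FPKM in resistant and 254 FPKM in parental cells (-0.04). PRDX4, of the endoplasmic reticulum, had 126 FPKM in resistant and 109 FPKM in parental cells (0.20).

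Superoxide dismutases, which turn superoxide into hydrogen peroxide, were level. SOD1, of the cytosol, had 299.6 FPKM in resistant and 311 FPKM in parental cells, and SOD2, of mitochondria, had 51.7 FPKM in resistant and 52.3 FPKM in parental cells. Catalase, which splits hydrogen peroxide in peroxisomes, had 43.7 FPKM in resistant and 38.4 FPKM in parental cells (0.18). The median of these 3 genes was -0.02, and 0.02 after division by the median ratio. Of glutathione peroxidases, GPX8, an endoplasmic reticulum form, had 17.8 FPKM in resistant and 17.9 FPKM in parental cells. GPX1, the cytosolic selenoenzyme, was listed at 1.56 FPKM in resistant and 1.70 FPKM in parental cells. GENCODE 29 gives GPX1 the type polymorphic pseudogene, and whether all its fragments were assigned to this locus was not tested, so these values are an uncertain measure of its level.

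The thioredoxin and glutaredoxin names gathered 18 genes, of which 5 lay above 0 and 13 below, with a median of -0.15. It was -0.23 with equal sums, -0.11 after division by the median ratio and -0.096 with the loci of a name summed. Over all compared genes 44.4% lay above 0, and the median was -0.04, or -0.06 at a mean of at least 10 FPKM. None of the 18 genes passed 2-fold. TXN, the thioredoxin that donates electrons to peroxiredoxins, had 350.2 FPKM in resistant and 362 FPKM in parental cells. GLRX3, a glutaredoxin of iron-sulfur cluster handling, was the most abundant of these genes, with 723 FPKM in resistant and 719 FPKM in parental cells. The joined locus that includes TXNDC5, an endoplasmic reticulum disulfide isomerase, had 169.6 FPKM in resistant and 189 FPKM in parental cells, and its reads cannot be divided among BLOC1S5, EEF1E1 and TXNDC5. TXNRD3, a thioredoxin reductase, had 8.15 FPKM in resistant and 6.99 FPKM in parental cells (0.20), while TXNRD2, the mitochondrial reductase, had 20.6 FPKM in resistant and 25.4 FPKM in parental cells (-0.29). TXNRD3NB, a neighbour of TXNRD3 caught by its name, had the lowest ratio, with 1.99 FPKM in resistant and 3.71 FPKM in parental cells (-0.66), from a locus without an assigned strand. Its other locus lay on the opposite side of 0, with 1.30 FPKM in resistant and 0.713 FPKM in parental cells (0.42), and the sum of both gave -0.34. The 13 genes that the naming rule leaves out had log2 ratios from -0.29 to 0.14, with TXNRD2 the lowest and TXNDC11 the highest. TXNL4A and TXNL4B, also caught by name, resemble thioredoxin in fold but act in splicing. They had log2 ratios of 0.04 and -0.26.

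Aldehyde dehydrogenases oxidise aldehydes to acids, and 1 gene carried most of the family. ALDH1A1, which makes retinoic acid from retinaldehyde and is used as a marker of stem-like tumour cells, had 945 FPKM in resistant and 691 FPKM in parental cells. This was the highest ratio of the family (0.45) and the largest absolute difference among all 85 genes, 254 FPKM. It was the gene with the 100th highest mean level of the 12405 compared. Its share of the family sum was 83.7% in resistant and 77.7% in parental cells. The sums were 1129 FPKM in resistant and 890 FPKM in parental cells, a log2 ratio of 0.34 that was 0.26 with equal sums and 0.38 after division by the median ratio. Of the 9 other genes 7 lay below 0, and the family median was -0.10 and negative under both rescalings.

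Among the rest, ALDH7A1, of lysine breakdown, had 48.6 FPKM in resistant and 45.7 FPKM in parental cells. ALDH3A2, which oxidises fatty aldehydes, had 42.9 FPKM in resistant and 45.1 FPKM in parental cells. ALDH9A1, of carnitine synthesis, had the lowest ratio, with 25.2 FPKM in resistant and 32.2 FPKM in parental cells (-0.34). None of these was close to 2-fold. The other 6 had log2 ratios from -0.32 to 0.16, among them ALDH2, the mitochondrial enzyme of acetaldehyde oxidation, with 9.92 FPKM in resistant and 10.99 FPKM in parental cells (-0.14). ALDH1A1 lies on chromosome 9 between 72900662 and 73080442 on the minus strand.

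Aldo-keto reductases and carbonyl reductases reduce aldehydes and ketones to alcohols. AKR1B1, aldose reductase, had 129 FPKM in resistant and 136 FPKM in parental cells, AKR1A1 had 51.2 FPKM in resistant and 47.2 FPKM in parental cells, and AKR7A2 had 48.6 FPKM in resistant and 49.1 FPKM in parental cells. The highest ratio was that of AKR1E2 (14.7 FPKM in resistant and 12.9 FPKM in parental cells, 0.18). AKR1C2, a hydroxysteroid dehydrogenase whose AKR1C group is a common readout of NRF2 activity, had the lowest, with 4.49 FPKM in resistant and 7.43 FPKM in parental cells (-0.62). CBR1, a cytosolic carbonyl reductase known for reducing anthracyclines, had 46.7 FPKM in resistant and 41.3 FPKM in parental cells (0.18). Over 8 genes the median was -0.05, and -0.01 after division by the median ratio. The family sums, 303 FPKM in resistant and 304 FPKM in parental cells, were nearly equal.

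**Figure D4:**
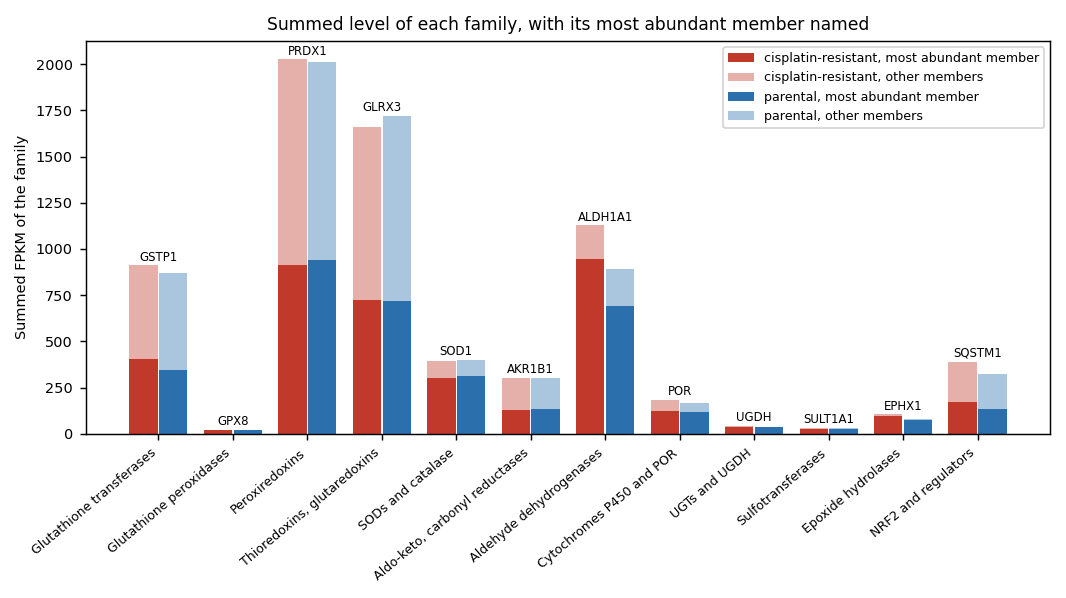
Summed FPKM of each family in the resistant (red, left bar) and parental (blue, right bar) library, with the most abundant member in full colour and named above, and the other members in pale colour (n = 1 library each). Peroxiredoxins reach 2025 FPKM in resistant and 2009 FPKM in parental cells, and the widest gap between bars is in the aldehyde dehydrogenases, 1129 FPKM in resistant and 890 FPKM in parental cells, most of it in ALDH1A1.

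Cytochromes P450 were scarce apart from their electron donor. POR, the reductase that passes electrons to the P450 enzymes of the endoplasmic reticulum, had 122 FPKM in resistant and 117 FPKM in parental cells. The orphan enzyme CYP20A1 had 12.2 FPKM in resistant and 9.14 FPKM in parental cells (0.38), and CYP4V2, a fatty acid hydroxylase, had 8.77 FPKM in resistant and 8.86 FPKM in parental cells. Over 14 genes, POR included, 10 lay above 0 and 4 below, with a median of 0.25 that stayed positive under both rescalings. CYP26A1, CYP2E1, CYP2C8 and CYP1A1 reached the minimum in resistant cells alone, and CYP1B1 in parental cells alone. The minimum thus partly sets this count and median, and nothing is read from them. A pseudocount of 5 FPKM gave 0.14 and a filter of 5 FPKM gave 0.06. Every P450 gene with a ratio above that of CYP20A1 had a mean under 5 FPKM.

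CYP26A1, which degrades retinoic acid and is known as a sensitive target of it, had 3.25 FPKM in resistant and 0.405 FPKM in parental cells, a log2 ratio of 1.60. It was past 2-fold by this rule and within it with a pseudocount of 5 FPKM (0.61). Its close relative CYP26B1 had 7.37 FPKM in resistant and 8.49 FPKM in parental cells (-0.18). CYP26A1 lies on chromosome 10 from 93073475 to 93077890 on the plus strand, and 1 of its 2 RefSeq promoter windows, chr10:93073643-93073942, is printed because it holds a direct repeat of AGTTCA with 5 bases between. This is a known form of a retinoic acid response element.
CYP26A1 promoter: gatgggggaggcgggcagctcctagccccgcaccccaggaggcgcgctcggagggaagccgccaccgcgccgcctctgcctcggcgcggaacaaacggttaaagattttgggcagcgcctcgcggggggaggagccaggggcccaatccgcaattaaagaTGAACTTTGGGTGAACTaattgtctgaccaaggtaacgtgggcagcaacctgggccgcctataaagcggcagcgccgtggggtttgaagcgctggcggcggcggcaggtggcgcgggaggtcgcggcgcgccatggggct
The capitals mark the repeat, which reads AGTTCA on the minus strand. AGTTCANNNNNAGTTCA, on either strand, was found in the windows of 4 of 27305 genes, a search added after the values were seen. The letters searched are those of the CYP26A1 repeat itself, so its own match was set in advance. Other forms of the element were not searched, so the count does not measure how rare such elements are. The other window of CYP26A1 holds none of the 3 motifs searched.

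CYP2E1, an ethanol-oxidising enzyme typical of liver, had 1.89 FPKM in resistant and 0.438 FPKM in parental cells, which put it just past the limit (1.01). It lay inside the limit with equal sums (0.95) and with a pseudocount of 5 FPKM (0.34). Its 2 values stood in the ratio that 13 reads against 3 would give, allowing for a worth of 1 read that was 0.996 times as large in the resistant library. Such a ratio makes few reads likely and does not prove their number. Of 14 described genes above 0 and under 5 FPKM in both libraries, 3 gave such a ratio: CYP2E1, CYP1B1 and TXNRD3NB. CYP26A1 and SULT2B1 were among those that did not. CYP2E1 lies on chromosome 10 from 133520406 to 133561220 on the plus strand.

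Of the AHR targets, CYP1A1 had 1.48 FPKM in resistant and 0.588 FPKM in parental cells (0.64), and CYP1B1, the lowest ratio of the family, had 0.662 FPKM in resistant and 1.66 FPKM in parental cells (-0.68). The CYP1B1 values stood in the ratio of 2 reads against 5. With a pseudocount of 0.1 FPKM both passed 2-fold, CYP1A1 at 1.20 and CYP1B1 at -1.21. These 2 related genes thus lay on opposite sides of 0. CYP27B1, which makes the active form of vitamin D, had 2.89 FPKM in resistant and 1.43 FPKM in parental cells (0.68). The drug-metabolising CYP2C8 had 2.01 FPKM in resistant and 0.998 FPKM in parental cells (0.59). CYP2R1, which makes the circulating form of vitamin D, had 7.10 FPKM in resistant and 6.63 FPKM in parental cells (0.09), and CYP2U1, a fatty acid hydroxylase, had 5.51 FPKM in resistant and 5.03 FPKM in parental cells (0.11). Of the 14 names, CYP4F35P is a pseudogene and CYP51A1-AS1 an antisense RNA gene.

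Conjugation with glucuronic acid is carried out by UGT enzymes, which take the sugar from UDP-glucuronic acid made by UGDH. UGDH had 34.4 FPKM in resistant and 35.9 FPKM in parental cells. UGT8, which despite its name adds galactose to ceramide, had 5.11 FPKM in resistant and 2.71 FPKM in parental cells (0.72). UGT1A6, which glucuronidates small phenols, had 3.04 FPKM in resistant cells and was listed at 0 in parental cells. It passed the rule of size, and no fold is given against a value listed at 0. With a pseudocount of 5 FPKM it lay within 2-fold.

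UGT1A6 lies on chromosome 2 from 233691607 to 233773300 on the plus strand. It shares its last exons with the other UGT1A genes, so fragments there do not tell these genes apart. The RefSeq window chr2:233692640-233692939, 1 of its 2, holds a TGACNNNGC match in capitals and no GCGTG.
UGT1A6 promoter: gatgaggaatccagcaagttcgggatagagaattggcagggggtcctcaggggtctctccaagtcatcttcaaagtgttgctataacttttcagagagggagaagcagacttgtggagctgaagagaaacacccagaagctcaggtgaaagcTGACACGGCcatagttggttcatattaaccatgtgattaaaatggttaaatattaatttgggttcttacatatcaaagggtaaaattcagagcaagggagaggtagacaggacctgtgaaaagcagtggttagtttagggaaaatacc
The other window holds 1 GCGTG match and no TGACNNNGC.

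Sulfotransferases add sulfate to phenols and steroids. SULT1A1, which sulfates phenols, had 27.6 FPKM in resistant and 24.4 FPKM in parental cells (0.17), and SULT4A1, a brain-expressed member with no settled substrate, had 5.43 FPKM in resistant and 4.27 FPKM in parental cells (0.29). SULT2B1, which sulfates cholesterol and related sterols, was the one gene at least 2-fold lower. It had 0.627 FPKM in resistant and 2.69 FPKM in parental cells, a log2 ratio of -1.18, and -0.45 with a pseudocount of 5 FPKM. Its gene is on chromosome 19, plus strand, between 48552075 and 48599425, and its window holds 2 GCGTG matches and no TGACNNNGC. Epoxide hydrolases open reactive epoxides to diols. EPHX1, the microsomal form, had 96.8 FPKM in resistant and 74.1 FPKM in parental cells (0.38), and EPHX2, the soluble form, had 9.18 FPKM in resistant and 7.79 FPKM in parental cells (0.21). Both lay above 0 under both rescalings.

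Of genes inside the 2-fold limit, the closest to it were CYP4F35P (4.65 FPKM in resistant and 2.05 FPKM in parental cells, log2 ratio 0.89), UGT8 (0.72) and CYP1B1 (-0.68). Just outside it were CYP2E1 (1.01) and SULT2B1 (-1.18), while CYP26A1 (1.60) and UGT1A6, the others past the limit, lay farther out.

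The regulators were measured at levels well above detection. NFE2L2, the NRF2 gene, had 83.9 FPKM in resistant and 65.3 FPKM in parental cells (0.36). KEAP1, its inhibitor, had 36.2 FPKM in resistant and 30.5 FPKM in parental cells (0.24). SQSTM1, the autophagy receptor p62 that binds KEAP1 and is itself an NRF2 target, had 173 FPKM in resistant and 136 FPKM in parental cells (0.34). The activator and its inhibitor thus both had higher values in the resistant library, within 2-fold. HMOX1, the inducible enzyme that breaks down haem, had 27.5 FPKM in resistant and 20.2 FPKM in parental cells (0.43), the highest ratio of this group. PIR, pirin, an iron-binding NRF2 target, had 69.3 FPKM in resistant and 70.6 FPKM in parental cells (-0.03). The median of these 5 genes was 0.34, and 0.26 with equal sums and 0.38 after division by the median ratio.

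The wider NRF2 list, with 28 of 29 listed targets and partners measured, had 16 genes above 0, a median of 0.08, 3 genes at least 2-fold higher and 0 lower. Over all compared genes 44.4% lay above 0, 3.28% were higher and 2.70% lower. The cystine importer SLC7A11 had 94.5 FPKM in resistant and 3.05 FPKM in parental cells. The stress-induced growth inhibitor OSGIN1 had 9.91 FPKM in resistant and 3.70 FPKM in parental cells (1.22, and 0.78 with a pseudocount of 5 FPKM). TXNRD1, the cytosolic thioredoxin reductase, had 174 FPKM in resistant and 80.1 FPKM in parental cells in its strand-assigned locus (1.11), while a locus of unassigned strand had 10533 FPKM in resistant and 3677 FPKM in parental cells. Among the 55 detoxifying and redox genes with a mean of at least 10 FPKM, the highest log2 ratio was the 0.45 of ALDH1A1.

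Of 20 listed receptors and partners that regulate these enzymes, 14 were measured, with a median of -0.12, 5 genes above 0, 3 at least 2-fold higher and 0 lower, beside the same 3.28% and 2.70% of all genes. AHR, the receptor for dioxins and tryptophan products, had 3.34 FPKM in resistant and 0.536 FPKM in parental cells (1.50), and so passed the minimum in resistant cells alone. TIPARP, an AHR target that represses it, had 13.0 FPKM in resistant and 5.94 FPKM in parental cells (1.01, and 0.94 with equal sums). VDR, the vitamin D receptor, had 9.77 FPKM in resistant and 2.71 FPKM in parental cells (1.54). With a pseudocount of 5 FPKM all 3 lay within 2-fold, at 0.59 for AHR, 0.72 for TIPARP and 0.94 for VDR. Both lists were chosen with earlier results of these data known.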

How the data were processed

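Polyadenylated RNA was sequenced from 1 library of cisplatin-resistant and 1 of parental SBC5 cells. The values are FPKM as deposited by the authors, with a column for each library, per the file headers. TopHat2, without a version, and the build hg38 are named per the submitters' processing notes. Neither the software nor the gene models used for quantification are stated. Each column name matched the description of 1 library in the labels, and 0 columns were left over.

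Of 19217 loci, 2919 without a name and 23 with date-like names were left out. The locus of highest mean FPKM stood for each of 12494 names, and 12405 genes reached the minimum of 1 FPKM in one library or both. The log2 ratio was taken on FPKM + 1. With 1 library per group no test was possible, and a limit of 1 in either direction on the log2 scale took its place. The table holds no counts, so depth is unknown. Among 7591 loci above 0 and under 5 FPKM, 52.9% of ratios matched 0.996 times the quotient of 2 whole numbers no larger than 20, within a relative tolerance of 2e-05, against 0.268% on average with 20 wrong factors.

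Strand was inferred from the order of loci and GENCODE 29 (GRCh38, the same build as hg38). It placed 12849 loci, 98.7% of the 11551 with an annotated strand on that strand. Chromosomes with poor agreement were left without a strand, so this share is not an independent check. Among the genes described, 84 of 85 were placed. GENCODE gave positions for 82.

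Genes are named when past 2-fold, among the 3 most abundant or at either extreme of their family, or on the list of 11 single genes. Further genes, named to fill in a family, were picked with their values known. The genes and lists were chosen with earlier results of these data known. The rule of size was tried on simulated data, with changes placed only in genes with a mean of at least 10 FPKM. All these changes were larger than the limit and the noise was assumed, so their recovery says little about changes near the limit. That trial does not cover the lower levels at which the described genes past the limit lie. Python 3.11.15, pandas 2.3.3, NumPy 2.4.6 and matplotlib 3.10.9 were used.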

Additional observations from a re-analysis of the deposited data

How the results depend on the processing

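No paired analysis was possible because each group has 1 library. The 85 genes gave 5 higher and 2 lower with a pseudocount of 0.1 FPKM, 0 and 0 with one of 5 FPKM, 0 and 0 of 70 with a filter of 5 FPKM, and 1 and 0 at a 4-fold limit. The genes added at 0.1 FPKM were CYP1A1, CYP1B1 and CYP4F35P. Over all genes the counts were 614 higher at 0.1 FPKM, 142 higher and 136 lower at 5 FPKM, 286 and 262 with the filter, and 76 and 60 at 4-fold. The count of lower genes at 0.1 FPKM stayed within 1.5 times the main one.

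The median of UGT and UGDH genes was 0.33 with a filter of 5 FPKM, 0.89 with a pseudocount of 0.1 FPKM and 0.39 with one of 5 FPKM. That of the cytochromes P450 was 0.0571 with the filter and 0.14 with the pseudocount of 5 FPKM. The log2 ratio of family sums with the filter was 0.0317 for UGT and UGDH and 0.21 for sulfotransferases. The other 192 of 212 counts, medians and sums moved by at most 0.1 on the log2 scale, or, for counts, by at most 1.5 times.

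Scaling to equal sums turned the sign of 5 of the 85 genes, division by the median ratio that of 10, and summing the loci of a name that of 2. No gene past 2-fold turned its sign under any alternative run. With strand-assigned loci only, 84 genes were left and the same 4 were past 2-fold. Genes under 5 FPKM rest on an unknown and probably small number of reads.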

Other observations

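Of the 104 loci, 19 did not represent their gene. TXN2, the mitochondrial thioredoxin, was represented by a locus with 93.5 FPKM in resistant and 104 FPKM in parental cells. Its second locus, without an assigned strand, had 17.2 FPKM in resistant and 10.1 FPKM in parental cells (log2 ratio 0.71). These loci lay on opposite sides of 0, and summing them gave a value closer to 0. SULT4A1 had 6 loci. Its strand-assigned locus had 5.43 FPKM in resistant and 4.27 FPKM in parental cells, and the other 5, all without a strand, had log2 ratios from -0.33 to 0.48.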
